A study of Mus musculus with 39 samples.

Results

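Gene expression was compared, gene by gene, between 5 wild-type liver libraries from mice exposed to PCB-153 and 5 wild-type liver libraries from mice given the vehicle DMSO. The comparison took 10 of the 39 libraries of the series. It covered 16155 of the 54735 genes in the liver table, namely those with a mean normalised read count of at least 10 over the 20 liver libraries. PCB-153 is a persistent polychlorinated biphenyl. By the labels its dose was close to 54 µg/kg/day, with exposure starting perinatally and lasting to 4 weeks of age. The mice were of strain C57BL/6 and 4 weeks old when the livers were taken. The wild-type groups carried an intact gene for SXR, also called PXR, the steroid and xenobiotic receptor encoded by Nr1i2. The other liver groups, 5 libraries with PCB-153 and 5 with DMSO, carried an SXR knockout and are used here to estimate the spread and to test whether the exposure acted differently in the 2 genotypes. The labels name no litter and do not state that each library came from its own animal, so p-values measure the spread between these libraries, which may in part be technical.

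Foreign chemicals are sensed in hepatocytes by receptors that act as transcription factors. CAR (Nr1i3) and SXR switch on genes of the Cyp2b, Cyp2c and Cyp3a families, AHR switches on Cyp1a1 and Cyp1a2, and PPARA switches on genes that burn fatty acids, among them Cyp4a10 and Cyp4a14. Non-planar biphenyls such as PCB-153 are known from rodent studies at high doses as inducers of the Cyp2b family through CAR, while planar biphenyls act through AHR. Growth hormone, secreted in pulses in males, sets many sex-dependent liver genes through STAT5, and Cish is switched on and Bcl6 switched off within a short time of a pulse.

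The 10 libraries held 15.23 to 20.14 M assigned reads, and repeat libraries of a group differed by more than counting error. Albumin took 7.94 to 9.36% of the reads with PCB-153 and 7.75 to 8.97% with vehicle and is the chief secreted product of hepatocytes. Mitochondrial transcripts took 5.53 to 10.4% with PCB-153 and 7.54 to 12.42% with vehicle. Every library had the male pattern of sex-linked genes, with Eif2s3y between 582 and 726 and Xist at or below 5.54 normalised reads. Nr1i2 itself, counted over its whole length, stood at 1019 to 1939 in wild-type PCB-153 livers, 1328 to 1781 in wild-type vehicle livers and 449 to 1155 in knockout livers. On the first principal component, which held 28.84% of the variance, PCB-153 libraries 1, 2 and 4 (31.8, 38.8 and 14.8) lay on the side of vehicle library 3 (33.2), and PCB-153 libraries 3 and 5 (-7.60 and -16.6) on the side of the other 4 vehicle libraries (-31.8 to -18.8). Bulk liver cannot tell fewer cells of a type from less RNA per cell.

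No gene passed the test. Of 16155 genes, 0 (0%) had an adjusted p under 0.05 in the limma fit with Benjamini-Hochberg adjustment, and the smallest adjusted p was 0.717. At an unadjusted p under 0.05 there were 1081 genes (6.69%), against 808 that a test with no true difference would give at that threshold, 578 (3.58%) with a positive and 503 (3.11%) with a negative log2 fold change. In a fit of the wild-type libraries alone the count was 733, and with the replicate number as a block it was 528, both below 808. The PCB-153 and vehicle groups did not overlap for 82 genes (0.508%), 39 (0.241%) with all PCB-153 libraries above and 43 (0.266%) with all below. edgeR's quasi-likelihood test on the recovered reads also called 0 genes, and 950 genes had an unadjusted p under 0.05 there. DESeq2's Wald test on the same reads called 1 gene, Egfr, with an adjusted p of 0.0413. In the authors' deposited table, 0 of 32322 genes with an adjusted p were under 0.05, 1160 had an unadjusted p under 0.05, and the smallest adjusted p, 0.0854, was that of Egfr. Single libraries moved the unadjusted count by more than 1.5 times: 2763 genes without vehicle library 3, 1848 without PCB-153 library 5, 715 without PCB-153 library 1 and 648 without PCB-153 library 2. Leaving out any 1 library gave 0 calls in the limma fit, and between 124 (without vehicle library 2) and 706 (without vehicle library 3) genes whose groups did not overlap, a count that grows by construction when a group has fewer libraries.

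The precision of these values is as follows. The median gene had a 95% interval of 0.35 on either side of its log2 fold change, and for 14292 genes (88.5%) the whole interval lay within 1 on the log2 scale. The median log2 fold change over all genes tested was -0.01, with quartiles of -0.15 and 0.14. An absolute log2 fold change above 1 was seen for 90 genes, 35 of them with a mean of at least 50.

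The enzymes that foreign compounds induce showed no call. Of 19 genes examined for this purpose (15 enzymes and transporters and 4 receptors), 4 had a positive and 15 a negative log2 fold change, the groups overlapped for all 19, and for 15 of them the 95% interval lay within a 2-fold change either way. An exact two-sided permutation test of each gene, 5 against 5 libraries, gave 0 values under 0.05, the smallest being 0.0556 for Cyp3a11, where the smallest that the design allows is 0.00794.

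**Figure D1:**
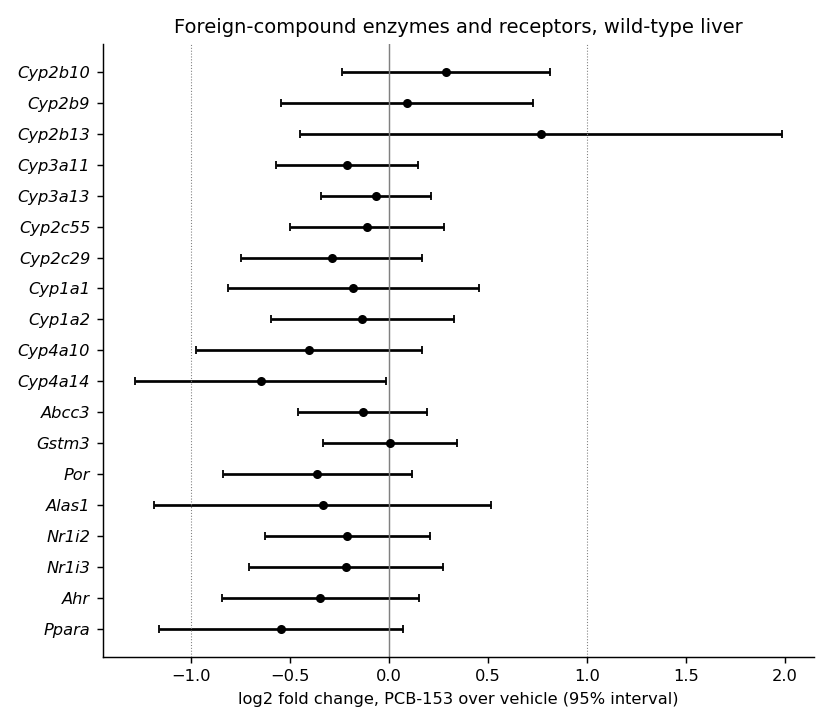
Log2 fold change of PCB-153 over vehicle (horizontal axis) with its 95% interval from the limma fit (bars) for 19 genes of foreign-compound metabolism and its receptors in wild-type liver; dotted lines mark a log2 fold change of 1 either way. The interval of 18 of the 19 genes covers 0, and that of Cyp4a14 runs from -1.28 to -0.01.

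Cyp2b10, the classical CAR target (chromosome 7, 25897620 to 25926624, GRCm38), had 470, 361, 1032, 898 and 918 normalised reads in PCB-153 livers, against 645, 547, 408, 810 and 454 in vehicle livers. PCB-153 libraries 3, 4 and 5 lay above every vehicle library and libraries 1 and 2 lay among or below them. Its log2 fold change was 0.29 ± 0.25 (SE; unadjusted p = 0.264, adjusted p = 0.754, limma), and the 95% interval of the ratio ran from 0.85 to 1.76. Cyp2b13, a close relative expressed more in females, had 91.4, 25.7, 185, 126 and 396 reads with PCB-153 and 85.7, 90.5, 38.2, 220 and 22.5 with vehicle, a ratio whose interval, 0.733 to 3.96, is the widest of the 19. Reads can be shared within this family: 27.3% of the 50-base words of Cyp2b13 and 8.7% of those of Cyp2b10 occur in another gene. Cyp2b9 had a log2 fold change of 0.09 ± 0.31.

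Cyp3a11, the main SXR target among liver P450 genes (chromosome 5, 145854426 to 145879964), averaged 87727 ± 4841 reads in PCB-153 livers and 102022 ± 13180 in vehicle livers (SD, n = 5 each). All 5 PCB-153 livers lay between 81170 and 94314 and 4 of the 5 vehicle livers lay above that range, the remaining one at 85264. The log2 fold change was -0.21 ± 0.17 (SE), and its interval allowed a ratio of at most 1.11; quantile normalisation turned the sign, with 0.01. Cyp2c29, Cyp2c55 and Cyp3a13, further SXR and CAR targets, had log2 fold changes of -0.29, -0.11 and -0.06, and Por, the reductase that passes electrons to all these P450 enzymes, had -0.36. Of the AHR targets, Cyp1a1 averaged 201 ± 29 reads with PCB-153 and 231 ± 54.4 with vehicle, and Cyp1a2 averaged 9628 ± 1077 with PCB-153 and 10598 ± 1514 with vehicle (SD, n = 5 each). The receptor genes themselves were all negative and uncalled, Nr1i2 at -0.21, Nr1i3 at -0.21, Ahr at -0.35 and Ppara at -0.54.

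Longer lists were then examined. Of 45 measured CAR and SXR targets, 14 had a positive and 31 a negative log2 fold change, with a median of -0.09, and 0 of the 45 had an unadjusted p under 0.05, where 6.69% of all genes did. The median was -0.03 without PCB-153 library 1 and -0.05 without PCB-153 library 2. The 9 measured AHR targets had a median of -0.04 and the 27 targets of NRF2, the regulator of antioxidant genes, a median of -0.03, and none of either list had an unadjusted p under 0.05. Both medians were above 0 after quantile normalisation, at 0.04 and below 0.01, and lay between -0.08 and 0 with 1 library left out. Of 32 conjugating enzymes 1 had an unadjusted p under 0.05, Ugt3a1, a glycosyltransferase that attaches sugars to drugs. It had 378, 365, 366, 381 and 365 reads with PCB-153, against 433, 511, 436, 516 and 700 with vehicle (log2 fold change -0.46 ± 0.22 SE, unadjusted p = 0.0477). Its groups did not overlap, and 7.6% of its 50-base words occur in other genes, mostly Ugt3a2.

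The gene with the smallest p was Egfr, the receptor for epidermal growth factor (chromosome 11, 16752203 to 16918158). It had 5215, 4552, 5972, 4587 and 4838 reads in PCB-153 livers, against 7368, 9881, 6733, 9110 and 7321 in vehicle livers. Every PCB-153 liver lay below every vehicle liver. The log2 fold change was -0.68 ± 0.14 (SE; interval -0.96 to -0.39; unadjusted p = 8.4e-05; adjusted p = 0.717, limma), and the authors' deposited table gives -0.68 with an adjusted p of 0.0854. In knockout livers the log2 fold change of PCB-153 over vehicle was -0.24, and the difference between genotypes had an unadjusted p of 0.0365 and did not pass over all genes. An opposite-strand gene, Egfros, overlaps Egfr, and likewise Ino80e overlaps Doc2a and Mybph overlaps Adora1, so without a known strand setting some of their reads are uncertain.

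Genes with a mean of at least 50 were ranked by p next, with predicted genes and pseudogenes left out. Egfr was 1 of the 12 with the smallest p and a negative log2 fold change. Zbtb20, also among them, a zinc-finger repressor needed for normal adult liver gene expression, had 779, 806, 609, 598 and 976 reads with PCB-153 and 1489, 1164, 945, 944 and 1194 with vehicle (log2 fold change -0.61 ± 0.16 SE); only PCB-153 library 5 reached the vehicle range. Foxo1, which drives glucose output when insulin is low, had 221, 202, 422, 436 and 380 reads with PCB-153 and 533, 635, 332, 586 and 536 with vehicle (-0.70 ± 0.20). Vehicle library 3 stood apart from the other 4 vehicle libraries there. Irf2bp2, a repressor of transcription, had 1088, 765, 1056, 1149 and 1258 reads with PCB-153 and 1823, 1396, 1326, 1376 and 1316 with vehicle (-0.45 ± 0.13), with no overlap. Phf8, a histone demethylase, averaged 122 ± 24.7 with PCB-153 and 189 ± 40.4 with vehicle. Slc45a3, a sugar transporter, averaged 730.5 ± 154 with PCB-153 and 1025 ± 143 with vehicle (SD, n = 5 each). Rnf44, B3galt1, Ablim3, Mtus1, Mdn1 and Dnmbp complete the 12, with log2 fold changes between -0.82 (B3galt1, a galactosyltransferase) and -0.32 (Rnf44, a RING-finger protein). Their adjusted p was 0.717 throughout.

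In the same ranking, Doc2a led the 12 genes with the smallest p and a positive log2 fold change. Doc2a encodes a calcium sensor of secretory vesicles. It had 84.2, 96.2, 78.1, 72.0 and 74.7 reads with PCB-153, against 55.2, 34.9, 58.7, 42.7 and 66.3 with vehicle (log2 fold change 0.67 ± 0.16 SE, unadjusted p = 0.000524), with no overlap. Id3, an inhibitor of helix-loop-helix transcription factors, had 1124, 1022, 529, 613 and 363 reads with PCB-153 and 251, 401, 471, 316 and 343 with vehicle (0.94 ± 0.25). Foxq1, a forkhead transcription factor, had 1057, 641, 543, 663 and 186 reads with PCB-153 and 211, 116, 511, 111 and 190 with vehicle (1.48 ± 0.41). For both genes PCB-153 library 5 lay inside the vehicle range, and the highest vehicle library was library 3. Adora1, the A1 adenosine receptor, had 482, 415, 419, 446 and 349 reads with PCB-153 and 339, 322, 318, 324 and 348 with vehicle (0.35 ± 0.10), with no overlap but by less than 1 read between the nearest libraries.

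**Figure D2:**
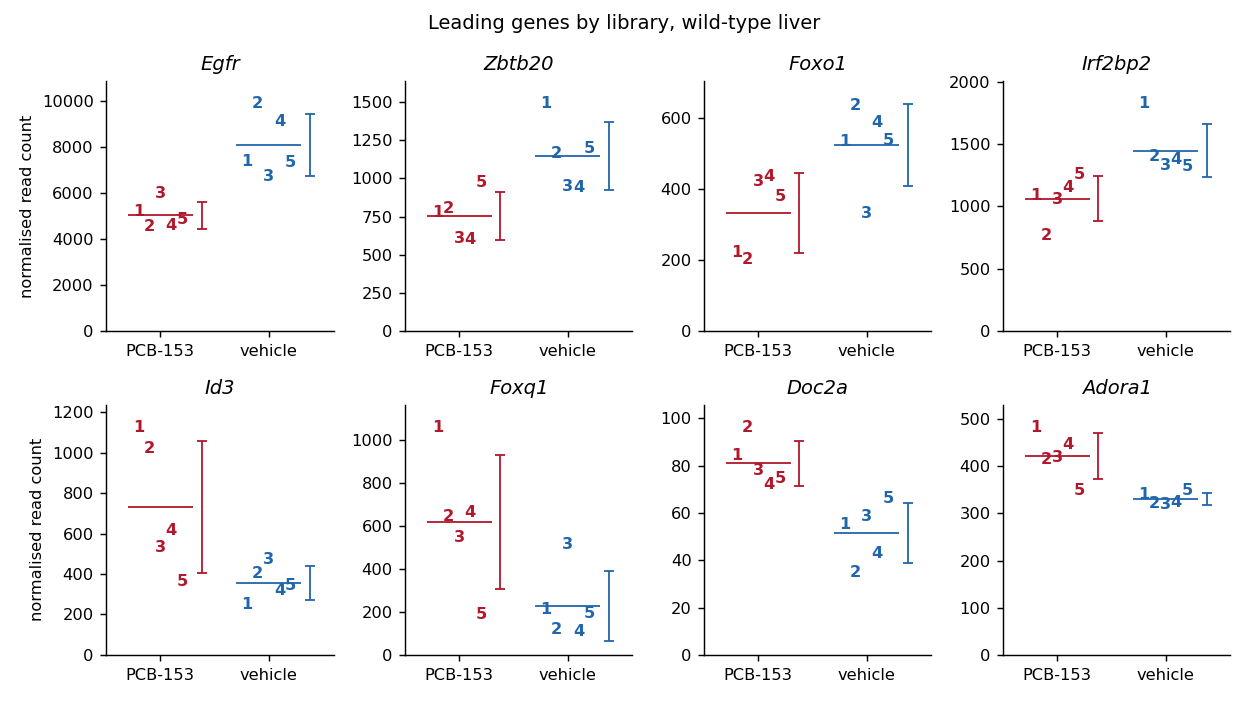
Normalised read count of 8 genes with small p in wild-type liver, one digit per library giving its replicate number (PCB-153 left, vehicle right), with the mean (horizontal line) and SD (bar, n = 5). Every PCB-153 library lies below every vehicle library for Egfr and Irf2bp2 and above every one for Doc2a and Adora1, while Foxo1, Id3, Foxq1 and Zbtb20 overlap.

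Of the remaining positive genes, Lgals1 and Anxa2, a galactose-binding lectin and a calcium-dependent membrane-binding protein, had log2 fold changes of 0.63 ± 0.18 and 0.43 ± 0.12 (SE). Bcam, a laminin receptor, and Sigirr, an inhibitory receptor of interleukin signalling, had 0.54 and 0.30, both with no overlap. Lzts2 had 0.42 and Nenf 0.48. Plac9a and Plac9b had 0.66 and 0.68, but 99.7% and 96.6% of their 50-base words occur in other genes, so their reads cannot be assigned to either copy with certainty. Genes whose groups did not overlap were taken with the same limits on mean and kind of gene. Their positive values of largest size further included Slc25a4, the mitochondrial ADP/ATP carrier (0.57), the glutathione transferase Gstp3 (0.48), Aph1c (0.45) and Enoph1 (0.39). The negative ones further included Dnttip2 (-0.41), Usp6nl (-0.37) and Mir3064 (-0.38). Mir3064 is a hairpin gene that lies within Ddx5, and its every 50-base word is shared with Ddx5. Of the 50-base words of Aph1c 18.4% occur in Aph1b.

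Among the wider receptor list, 24 transcription factors and partners, 18 had a negative log2 fold change and the median was -0.21. Hnf4a, the master regulator of hepatocyte genes, averaged 5837 ± 656 reads with PCB-153 and 7290 ± 791 with vehicle (SD, n = 5 each), a log2 fold change of -0.32 ± 0.11 (SE, unadjusted p = 0.00896). The corepressor Ncor1 had -0.36 and Pparg 0.46. The median stayed negative under all alternatives run, between -0.28 without vehicle library 3 and -0.14 without PCB-153 library 2.

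The list of PPARA targets had the lowest median of the 53 lists. Of its 25 measured members, 23 had a negative log2 fold change and the median was -0.40, beside -0.01 over all genes, and 2 of the 25 had an unadjusted p under 0.05, both negative, where 3.11% of all genes had such a p and a negative value. Angptl4, a secreted inhibitor of lipoprotein lipase, had 640, 589, 3488, 3778 and 1881 reads with PCB-153 and 2651, 4186, 2856, 3916 and 2463 with vehicle (-1.01 ± 0.44 SE). Cyp4a14, a fatty acid hydroxylase, had 5179, 4053, 11171, 9283 and 13521 reads with PCB-153 and 12421, 19787, 9364, 15708 and 7648 with vehicle (-0.65 ± 0.31). For both genes PCB-153 libraries 1 and 2 lay below every other library and the other 3 lay within the vehicle range, except library 5 for Angptl4, which lay below it. Per library, the mean log2 value of the 25 genes was 9.42, 9.33, 9.96, 9.95 and 9.71 with PCB-153 and 9.78, 10.5, 9.90, 10.2 and 9.71 with vehicle. The groups overlapped, and the median ranged from -0.53 without vehicle library 5 to -0.19 without vehicle library 2, with -0.27 and -0.26 without PCB-153 library 1 or 2. In fatty acid oxidation as a whole, 21 of 30 genes were negative with a median of -0.10, among them Acsl1, which activates long-chain fatty acids (-0.40), and Pex11a, which divides peroxisomes (-0.44). That median moved to -0.02 without vehicle library 2, to -0.04 and -0.06 without PCB-153 library 2 or 1, and to -0.18 without vehicle library 1.

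Fatty acid synthesis (25 genes, 18 negative, median -0.12) held both signs among its leading members, Elovl5, an elongase, at -0.33 and Mid1ip1, an activator of acetyl-CoA carboxylase, at 0.49. The list's median was -0.22 without vehicle library 3 and -0.03 without vehicle library 5. Cholesterol synthesis had 13 positive and 12 negative genes and a median of 0.01, which ran from -0.08 to 0.11 with 1 library left out. Bile acid synthesis had 14 of 19 genes negative and a median of -0.15, with none at an unadjusted p under 0.05. Its median was -0.06 without vehicle library 2 and between -0.10 and -0.09 without vehicle library 4, PCB-153 library 1 or PCB-153 library 2. Of the 28 genes of glucose metabolism 20 were negative, with a median of -0.08 and Foxo1 alone at an unadjusted p under 0.05; the median ran from -0.14 without PCB-153 library 4 to -0.01 without PCB-153 library 2. Tdo2, the first enzyme of tryptophan breakdown, had -0.36 and Pigr, the carrier of antibodies into bile, -0.47.

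Several genes varied between libraries of the same group by more than between the groups. Cish had 935, 878, 295, 736 and 136 reads with PCB-153, against 81.0, 116, 790, 157 and 31.3 with vehicle (log2 fold change 1.86 ± 0.65 SE, unadjusted p = 0.00893). Bcl6 had 247, 234, 1098, 173 and 468 reads with PCB-153, against 1826, 1479, 175, 1445 and 855 with vehicle (-1.36 ± 0.61). The 4 libraries with Cish above 700, PCB-153 libraries 1, 2 and 4 and vehicle library 3, were the 4 with Bcl6 below 250. Gadd45g, a stress gene of the liver, followed with 2432, 1028, 380, 880 and 247 reads with PCB-153 and 543, 106, 986, 125 and 205 with vehicle. These are the same 4 libraries that lay together on the first principal component.

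Lpin1, a phosphatidate phosphatase and coactivator, had 568, 553, 5202, 7587 and 2782 reads with PCB-153 and 5252, 5525, 2050, 7017 and 3968 with vehicle (-1.12 ± 0.56). Herpud1, a gene of the unfolded protein response, had 1880, 1753, 6982, 6707 and 4725 reads with PCB-153 and 7581, 7986, 4246, 7160 and 6241 with vehicle (-0.80 ± 0.33). PCB-153 libraries 1 and 2 were the lowest of the 10 for both. Clock genes also differed within groups. Per1 ran from 61.5 to 934 with PCB-153 and from 313 to 685 with vehicle, and Dbp from 93.9 to 774 with PCB-153 and from 33.8 to 414 with vehicle. The labels give no time of day for the collections, and the part of daytime in these values was not tested.

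**Figure D3:**
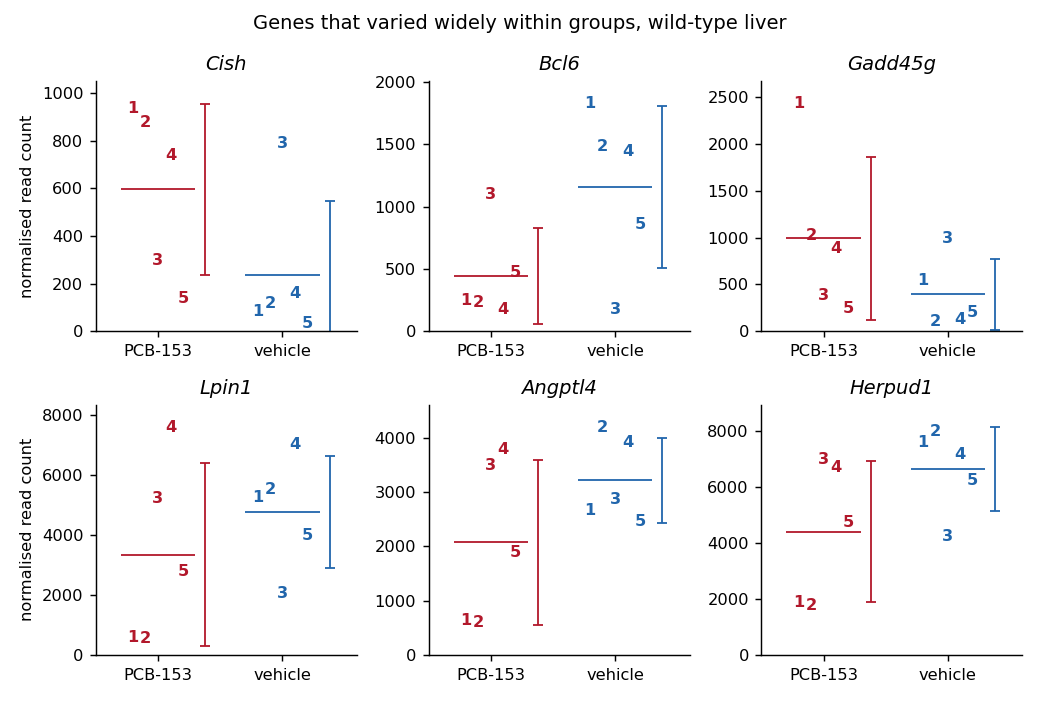
Normalised read count of 6 genes in wild-type liver, one digit per library giving its replicate number (PCB-153 left, vehicle right), with the mean (horizontal line) and SD (bar, n = 5; cut at 0). For Cish, Bcl6 and Gadd45g vehicle library 3 lies with PCB-153 libraries 1, 2 and 4, and for Lpin1, Angptl4 and Herpud1 PCB-153 libraries 1 and 2 are the lowest.

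Among genes with sex-dependent expression, the male-biased ones were mostly negative and the female-biased ones were evenly divided. Of 26 male-biased genes 22 had a negative log2 fold change (median -0.32) and 1 an unadjusted p under 0.05, the protease inhibitor Serpina1e (-0.45 ± 0.18 SE), 34.6% of whose 50-base words occur in other genes. The median moved to -0.14 without PCB-153 library 5 and to -0.20 without vehicle library 5. Of 30 female-biased genes 15 were positive, with a median of 0.02 that ran from -0.15 without PCB-153 library 5 to 0.16 without vehicle library 4. A1bg, a plasma glycoprotein, had 118, 79.4, 353, 65.8 and 394 reads with PCB-153 and 71.6, 67.2, 47.5, 42.7 and 109 with vehicle (1.26 ± 0.48). The thyroid axis list had 10 of 13 members negative, with Klf9, a thyroid-responsive transcription factor, at -0.58. Gpc3, a proteoglycan of fetal liver, had 39.5, 38.02, 89.1, 74.0 and 107 reads with PCB-153 and 45.8, 38.8, 21.4, 37.2 and 21.3 with vehicle (1.00 ± 0.32), and PCB-153 libraries 3, 4 and 5 lay above all vehicle livers.

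All 82 cytosolic ribosomal protein genes had a positive log2 fold change, with a median of 0.21 and a range of 0.02 to 0.57, beside 48.7% positive among all genes; 5 of the 82 had an unadjusted p under 0.05, where 6.69% of all genes did, and 0 passed. Without vehicle library 1 the median was 0.12 and without vehicle library 3 it was 0.32, and the same leave-outs gave 0.13 and 0.31 for the respiratory list that follows. Of 75 nuclear genes of the respiratory chain 70 were positive (median 0.20), and of 47 mitochondrial ribosomal proteins 37 were (median 0.15). Of 37 translation factors 14 were positive (median -0.05, between -0.07 and -0.02 under the alternatives run). All 13 protein-coding genes of mitochondrial DNA were negative, with a median of -0.23 that moved to -0.04 without PCB-153 library 3, to -0.07 without vehicle library 1 and to -0.34 without PCB-153 library 1. Per library, the mean log2 value of the 82 ribosomal genes was 11.7, 11.8, 11.6, 11.7 and 11.5 with PCB-153 and 11.1, 11.4, 11.9, 11.5 and 11.4 with vehicle. The highest of the 10 was vehicle library 3 and the groups overlapped.

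Ribosomal protein messages are known to begin with a cytosine followed by a run of pyrimidines, the 5′ terminal oligopyrimidine tract through which their translation is controlled. The start regions below are shown because all 82 of these genes had a positive log2 fold change, and for comparison with respiratory genes that had similar values. Candidates of both lists were ranked by their unadjusted limma p and taken from the smallest up, so those shown do not stand for their lists. Rps18 ranked after Fau and is not shown. The ribosomal genes shown were taken only from those whose annotated start carries the letters marked in capitals below. The respiratory genes were taken with or without them, so the contrast between the printed starts was set by this choice. Each is 30 bases from RefSeq (GRCm38.p6), 5′ to 3′ on the gene's strand, and where the annotated start begins with a C and 4 further letters that are each C or T, those 5 letters are in capitals. Fau lies at chr19:6057933-6057962 (plus), Rps21 at chr2:180257365-180257394 (plus), Rpl38 at chr11:114668566-114668595 (plus), Atp5g1 at chr11:96075616-96075645 (minus) and Ndufa8 at chr2:36049323-36049352 (minus).
Fau: gcgcgcccccacttCTTCCtctttcttgac
Rps21: accgaggacccgccCTCCTgcccaatagtg
Rpl38: gcggaagcctcgttCTTTCcccgttctctt
Atp5g1: caagggctaaagctgggaggtgagtcagtc
Ndufa8: ggagacgcatgcgcagatggtaccgggcag

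These letters stood at the annotated start of 14 of 61 matched ribosomal protein genes (22.95%), 4 of 62 respiratory genes (6.45%), 0 of 40 mitochondrial ribosomal proteins and 2 of 28 translation factors (7.14%). Over all genes with a RefSeq start region it was 813 of 27025 (3.01%), and over those among them that were tested, 315 of 10594 (2.97%). The list median of the log2 fold change was 0.21 for the ribosomal proteins and -0.05 for the translation factors. Fau, which encodes a ribosomal protein fused to a ubiquitin-like one, had 3462, 3235, 2840, 3083 and 2464 reads with PCB-153 and 1777, 2327, 2924, 2411 and 2291 with vehicle (log2 fold change 0.37 ± 0.13 SE, unadjusted p = 0.0076). Atp5g1, a subunit of ATP synthase, had 3760, 3648, 3137, 3981 and 2397 with PCB-153 and 1939, 2709, 3409, 2443 and 2642 with vehicle (0.37 ± 0.15). Ndufa8, a subunit of complex I, had 0.32 ± 0.13. In all 3 genes PCB-153 library 5 lay within the vehicle range and vehicle library 3 within the PCB-153 range.

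**Figure D4:**
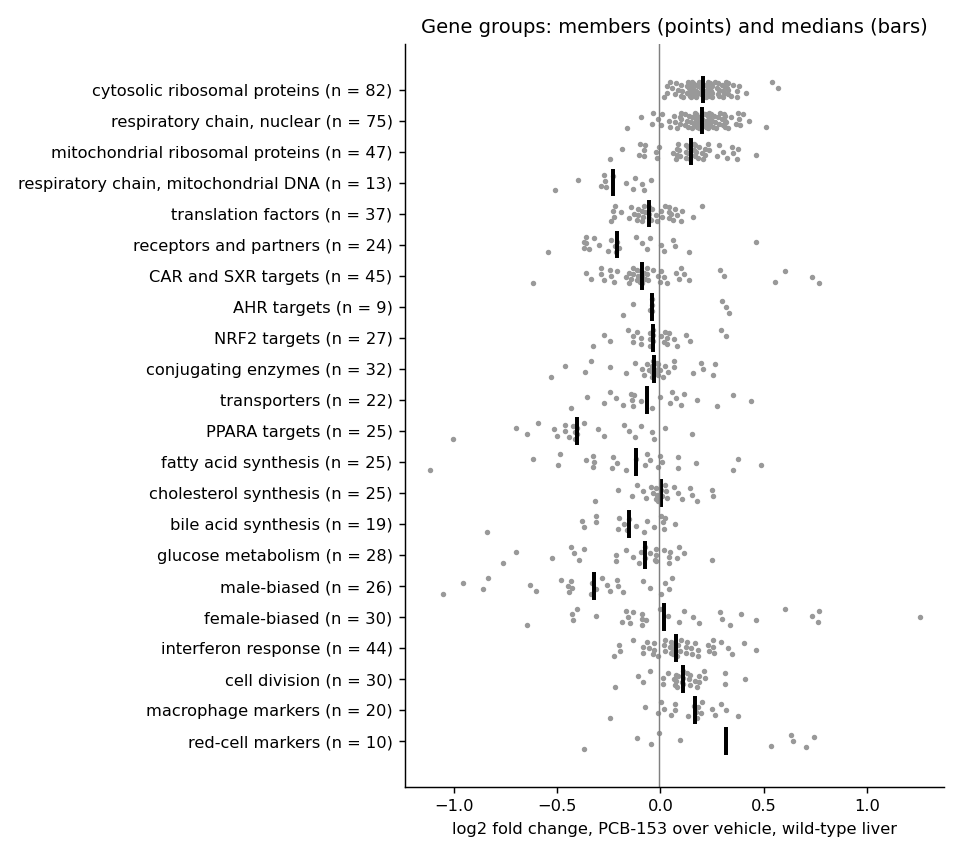
Log2 fold change of PCB-153 over vehicle in wild-type liver for the measured members (points) of 22 gene groups, with each group's median (black bar); the grey line is the median of all genes tested, -0.01. All 82 cytosolic ribosomal protein genes lie right of 0 and all 13 genes of mitochondrial DNA left of it, and no point passed the adjusted test.

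Transcript length and GC content both moved with these values. The median log2 fold change was 0.19 over 125 genes with transcripts of up to 500 bases and 0.16 over 1007 genes of 500 to 1000 bases, and it was -0.08 over 2079 genes of 4000 to 6000 bases and -0.11 over 1068 genes longer than that. Without the ribosomal and respiratory lists the medians of the shortest and longest classes were 0.19 and -0.11. In knockout livers the same classes had 0.13 and -0.10. Per library, the median of the short protein-coding genes (up to 1000 bases) was set against that of the long ones (over 4000 bases). The difference, short minus long, was 0.23, 0.29, 0.08, 0.25 and -0.22 on the log2 scale with PCB-153 and -0.28, -0.16, 0.36, -0.21 and -0.28 with vehicle. The order again put vehicle library 3 with the PCB-153 libraries and PCB-153 library 5 with the vehicle ones. With each library's trend over length removed, an alternative chosen after the data were seen, 78 of 82 ribosomal genes were positive with a median of 0.12 and 66 of 75 respiratory genes with a median of 0.12, while the PPARA targets had a median of -0.40. By GC content, the median log2 fold change was -0.09 over 507 genes with transcripts of up to 40% GC and 0.11 over 582 genes above 60% GC. The median transcript length of those classes was 3111 and 2068 bases, and the parts of length and GC content were not separated. The part of RNA integrity or library preparation in these trends was not tested, and the labels give no integrity value.

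**Figure D5:**
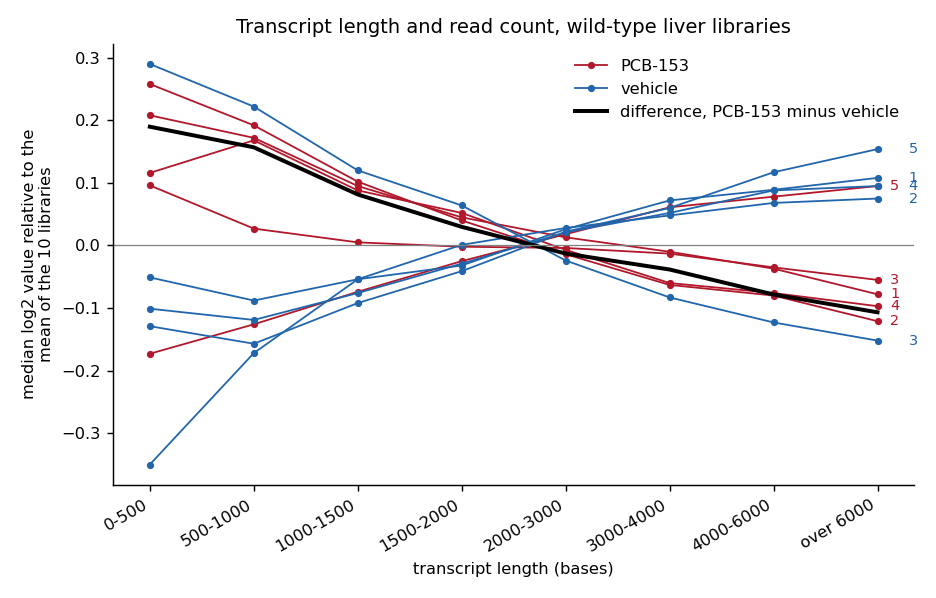
Median log2 value of the genes in each class of transcript length (horizontal axis, bases), relative to the mean of the 10 wild-type liver libraries, one line per library with its replicate number at the right end, and the median log2 fold change of PCB-153 over vehicle as a thick black line. PCB-153 library 5 runs with 4 vehicle libraries and vehicle library 3 runs with the other PCB-153 libraries, and the black line descends to -0.11 at the longest class.

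Markers of other cells were compared as well. Of 10 measured red-cell markers 6 were positive and 5 of them had an unadjusted p under 0.05, where 3.58% of all genes had such a p and a positive value. They were the 4 globin genes and Klf1, a regulator of globin genes, named after its value was seen. Hba-a1 had 5549, 4953, 4491, 7593 and 4993 reads with PCB-153 and 2405, 3826, 5466, 3679 and 2733 with vehicle (0.64 ± 0.21 SE, unadjusted p = 0.00699); 72.3% of its 50-base words are shared with Hba-a2. Hba-a1 and Hba-a2 are therefore not fully separate counts. The summed level of the 10 markers ran from 16339 to 26084 with PCB-153 and from 7756 to 18079 with vehicle. Genes with many reads, such as the globin genes, weigh most in that sum. With each marker weighted equally, the mean log2 value ran from 8.12 to 8.60 with PCB-153 and from 7.61 to 8.30 with vehicle. The other 4 markers were negative, down to -0.37, among them Alas2, the red-cell enzyme of haem synthesis, at -0.11. The part of blood left in the tissue was not tested. Macrophage markers had 17 of 20 positive (median 0.17), with a summed level of 8601 to 12848 with PCB-153 and 6675 to 10342 with vehicle, and stellate and fibroblast markers 16 of 19 (median 0.13). None of either list had an unadjusted p under 0.05. The macrophage median was 0.03 without PCB-153 library 5, 0.04 without vehicle library 2 and 0.10 without PCB-153 library 1. The stellate and fibroblast median was 0.03 without vehicle library 3, 0.06 without vehicle library 2, and 0.21 to 0.26 without PCB-153 library 4, PCB-153 library 1 or vehicle library 1. Krt7, a keratin of bile ducts, had 35.3, 12.3, 24.0, 19.5 and 22.2 reads with PCB-153 and 15.3, 12.9, 11.2, 7.66 and 6.26 with vehicle (1.01 ± 0.27), while the median of the 9 bile duct markers was -0.07, and 0.05 without vehicle library 4. Of 14 pancreatic markers 2 passed the filter on low values. Their summed level ran from 214 to 344 with PCB-153 and from 159 to 358 with vehicle. Both were positive, with a median of 0.38 that was 0.04 without that filter. Of the 2, 1 had an unadjusted p under 0.05 and 1 had all PCB-153 libraries above, beside 3.58% and 0.241% of all genes.

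The remaining lists held few genes with small p. Interferon response genes were positive in 32 of 44 (median 0.08) and cell division genes in 26 of 30 (median 0.11, Mcm3, a replication helicase subunit, at 0.41), with 0 and 1 at an unadjusted p under 0.05. The interferon median turned to -0.02 without PCB-153 library 5 and was 0.22 without vehicle library 3, the ends of its range. The cell division median was 0.05 without vehicle library 4 or 5 and 0.07 without PCB-153 library 5. Acute-phase genes were positive in 11 of 24 and complement and coagulation genes in 13 of 32. Genes of the response to DNA damage were positive in 8 of 16, with log2 fold changes from -0.58 to 0.87. Of these 16, 2 had an unadjusted p under 0.05 with a positive value and 1 with a negative value. Over all genes the shares were 3.58% and 3.11%. Cdkn1a, the cell-cycle inhibitor p21, had -0.56. Of 23 genes of the unfolded protein and amino acid stress responses 8 were positive and 15 negative, with a median of -0.06. Their values ran from -0.80 to 0.37, with 1 gene in each direction at an unadjusted p under 0.05. Atf4, the regulator of the amino acid stress response, had 0.37. Apcs, the serum amyloid P protein, had 2838, 3148, 2668, 3195 and 2539 reads with PCB-153 and 1342, 2268, 2676, 1917 and 2244 with vehicle (0.49 ± 0.15). Malat1, a long nuclear RNA, had -0.36 and Pabpc1, the poly(A)-binding protein, -0.24.

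Whether the exposure acted differently in the 2 genotypes was tested by the interaction, the wild-type difference minus the knockout difference. It gave 0 calls among 16155 genes (0%), with a smallest adjusted p of 0.986, and 435 genes (2.69%) at an unadjusted p under 0.05. Cyp2b10 had 2509, 1816, 2333, 1652 and 2532 reads in knockout PCB-153 livers and 700, 968, 975, 893 and 1299 in knockout vehicle livers. Those groups did not overlap. The log2 fold change was 0.29 ± 0.25 in wild type, as above, and 1.17 ± 0.25 in knockout (SE; adjusted p of the knockout value = 0.115, limma). The interaction for Cyp2b10 was -0.88 with an unadjusted p of 0.0218. Of the 45 CAR and SXR targets 14 had a positive log2 fold change in wild type (median -0.09) and 36 in knockout (median 0.25), and 12 of the 45 had an interaction with an unadjusted p under 0.05, none of them called. Of the 25 PPARA targets 2 were positive in wild type (median -0.40) and 17 in knockout (median 0.15), with 6 at an unadjusted interaction p under 0.05. Some other lists had the same sign in both genotypes. Of 82 cytosolic ribosomal protein genes 81 were positive in knockout (median 0.20), and of 75 nuclear respiratory genes 68 (median 0.13). Of 13 genes of mitochondrial DNA 0 were positive there (median -0.23). Each of these lists held 0 genes with such an interaction p. Of 26 male-biased genes 0 were positive in knockout, with a median of -1.62 beside -0.32 in wild type. In that list 4 of the 26 had an unadjusted interaction p under 0.05, where 2.69% of all genes did. These lists share libraries that vary together, and no test of a list was made.

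The genes with the smallest interaction p were taken at a mean of at least 50, with predicted genes and pseudogenes left out. They were Adora1, Cyp2u1 and Itga6 on the positive side and Cyp2c37, Lcn2 and Fgl1 on the negative side. For Adora1 the wild-type log2 fold change was 0.35 and the knockout one -0.23 (interaction unadjusted p = 0.000555). The other 5 had wild-type log2 fold changes between -0.07 and 0.11, and their knockout values were -1.52 for Cyp2u1, a fatty acid hydroxylase, -0.89 for the integrin Itga6, 1.11 for Cyp2c37, 1.62 for Lcn2, an acute-phase iron carrier, and 0.58 for Fgl1, a secreted hepatocyte protein. None of the 6 passed over all genes. Of the 50-base words of Cyp2c37 30.1% occur in other genes, mostly Cyp2c50.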

How the data were processed

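RNA was sequenced on a HiSeq4000 after Trizol extraction and an Illumina TruSeq preparation, per the labels' protocols. A stranded kit is named in one place and another kit elsewhere, so whether reads were counted by strand is unknown, and reads of overlapping opposite-strand genes may not be told apart. The tools in the submitters' processing notes are STAR 2.6.0, featureCounts, FastQC and DESeq2 (listed as 3.8), with the build mm10. The authors deposited a signal table of read counts divided by 1 size factor per library, and a table of their own DESeq2 comparison with log2 fold changes, a test score (the Wald statistic) and p-values. Dividing by each library's smallest step gave whole reads for 100% of values within 0.05 reads. There, 26 symbols that had been turned into dates were restored.

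On log2(value + 1), limma 3.58.1 (trend) in R 4.3.3 tested genes with a mean of at least 10, in 1 fit of the 20 liver libraries with 4 group means. This scale understates the change of low genes. Tests were two-sided with Benjamini-Hochberg adjustment, and a call is an adjusted p under 0.05. The fit was tested on simulated data. Alternatives were quantile normalisation, pseudocounts of 0.5 and 5, a filter at a mean of 50 or none, a fit of wild-type libraries alone, the same with a replicate block, leaving out each library, edgeR 4.0.16 and DESeq2 1.42.0 on the recovered reads, and, added after the data were seen, removal of each library's length trend. The genes named are 19 of foreign-compound metabolism, the 12 with the smallest p in each direction at a mean of at least 50, the 6 with the largest size in each direction among genes whose groups do not overlap, up to 2 members per direction of each list, 3 interaction genes per direction and clock and sex-linked genes. The genes chosen by p, by lack of overlap or by interaction had a mean of at least 50. Predicted genes, clone names and pseudogenes were left out of these choices. The genes and the 53 lists were chosen with earlier results of these data known. Positions, lengths and 50-base words are from GENCODE M21 (GRCm38), matched by symbol, and a length was found for 99.6% of the genes tested.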

Additional observations from a re-analysis of the deposited data

Results flagged for a closer look

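Within a group of 5, a library was set apart when its gap to the nearest other library exceeded the 95% critical value of Dixon's ratio. This was examined in 292 groups of values and found 16 times, where chance gives about 1 in 20 groups. PCB-153 library 4 stood apart for Anxa2 (262 normalised reads, below the rest) and PCB-153 library 2 for Tdo2 (8227, below the rest). Vehicle library 1 stood apart for Irf2bp2 (1823, above), Rps14 (951, below), mt-Nd4l (49743, above) and mt-Nd5 (124350, above). Vehicle library 3 stood apart, below the other vehicle livers, for Foxo1 (332), Mtus1 (2088), Mdn1 (114) and Abcc2 (4969). It stood above them in the median of short minus that of long transcripts (0.362 on the log2 scale) and in the mean log2 value of the interferon response genes (8.44). Vehicle library 4 stood apart for Usp6nl (385, above) and in the acute-phase mean (11.3), and vehicle library 5 for Pparg (43.8, below) and in the mean of the growth hormone and STAT5 axis (9.42, below). For Foxo1, Mtus1, Mdn1 and Abcc2 the value of vehicle library 3 lay within the range of the PCB-153 livers.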

How the results depend on the processing

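The count of calls in wild type was 0 in the limma fit, and 0 under 19 of 20 alternatives; DESeq2 gave 1, Egfr. The interaction gave 0 calls under every alternative run. Genes at an unadjusted p under 0.05 numbered 1081, with 1901 without a filter on low values, which adds genes, and 648 to 2763 with 1 library left out. Replicate numbers did not pair the samples (correlation of deviations -0.30 to 0.06 between same-numbered libraries), and with the replicate number as a block, wild-type libraries only, the count was 528; with wild-type libraries only and no block it was 733. Genes whose groups do not overlap numbered 82, with 135 without the filter and 124 to 706 with 1 library left out. The cause of the other shifts was not tested. Of 89 named genes 85 kept the sign of their log2 fold change throughout. Cyp3a11 had 0.0103 under quantile normalisation. Gstm3, at 0.0049 in the limma fit, had -0.0281 with edgeR, -0.0296 with DESeq2 and -0.0377 with the length trend removed, and -0.0676 to 0.16 with 1 library left out. The same leave-outs gave -0.15 to 0.40 for Cyp2b9 and -0.73 to 0.0157 for Alas1. With 5 libraries a group, log2 differences below about 0.35 lie within the median gene's interval, and counting error adds to this for low genes.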
